A study of Bos taurus with 8 samples.

Results

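The 8 genes described here encode the cytosolic translation elongation factors and the selenocysteine factor: EEF1D, the target of the RNA interference, with EEF1A1, EEF1A2, EEF1B2, EEF1G, EEF1E1, EEF2 and EEFSEC. They are 8 of 18079 named genes on the array. Every probe that carries one of these symbols was taken, which gave 34 of the 43415 probes kept: 4 for EEF1D, 9 for EEF1A1, 3 for EEF1A2, 3 for EEF1B2, 4 for EEF1G, 1 for EEF1E1, 7 for EEF2 and 3 for EEFSEC. RNA was measured on 8 one-colour arrays in bovine mammary epithelial cells, which are cultured primary cells, used at the fifth passage, from 1 lactating Holstein cow. Of these arrays, 3 came from cells with the EEF1D-1357 short hairpin RNA (shRNA), 3 from cells with the EEF1D-1893 shRNA and 2 from control cells that had no shRNA. No group with a non-targeting hairpin is named, so the presence of a hairpin and the loss of EEF1D cannot be told apart between the groups. Where on the transcript each hairpin binds, and whether the replicates came from separate cultures, are not given in the sources used here, so the p-values measure the spread between these arrays, which may be technical. In bulk RNA, fewer cells of a type and less RNA per cell cannot be told apart.

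Translation elongation adds amino acids to a growing protein in a repeated cycle. The GTPase eEF1A, made from EEF1A1 in most cells and from EEF1A2 mainly in muscle and neurons, brings aminoacyl-tRNA to the ribosome. The eEF1B complex then recharges eEF1A with GTP: EEF1B2 and EEF1D each encode a nucleotide exchange subunit, and EEF1G encodes the subunit that holds the complex together. After each peptide bond, eEF2 moves the ribosome along by 1 codon. EEFSEC encodes a dedicated factor that brings selenocysteine to certain UGA codons, and EEF1E1, also called AIMP3, encodes a scaffold protein of the multi-tRNA synthetase complex. In humans EEF1D also gives a longer protein form that acts as a transcription factor in the heat-shock response.

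Levels are given as log2 signal, where 0 is the 75th percentile of the same array, and each probe is set against itself between arrays. That percentile corresponded to intensities between 1276 (control replicate 1) and 2100, and 60.7 to 71.6% of probes were well above background on an array. Luminal keratin genes were present in every group: KRT18 was at 7.20, 7.24 and 7.12 on the EEF1D-1357 arrays, 7.22, 7.29 and 6.99 on the EEF1D-1893 arrays, and 7.93 and 7.31 on the control arrays. Of 9 luminal markers 8 were well above background on all arrays, whereas LALBA, the milk protein alpha-lactalbumin, was so on none. Of 5 endothelial markers PECAM1, KDR and TEK were likewise at background on all arrays, CDH5 was well above it on 2, and VWF on all 8, at -3.36 to -2.33 on the shRNA arrays and -1.88 and -2.63 on the control arrays. Of 5 leukocyte markers 4 were well above background on all 8 arrays, and PTPRC, the pan-leukocyte marker CD45, was at 0.80 to 2.38 on the shRNA arrays and 2.08 and 1.23 on the control arrays. The mean log2 level of the leukocyte list was -1.99 to -1.34 on the shRNA arrays and -1.79 to -1.24 on the control arrays. All 7 basal markers had log2 fold changes below 0 against control, as did 55.8% of all probes tested. Without control replicate 1 there were 6, against 45.8% of all probes tested, and without control replicate 2 there were 5. The mean log2 level of the basal list lay between 0.03 and 1.9 on the shRNA arrays and between 1.70 and 2.40 on the control arrays. In 2 of the 7, named after their values were seen, all 6 shRNA arrays lay below both controls, a pattern found at 9.99% of all probes tested. MYLK, the myosin light chain kinase, was at -4.10, -2.90 and -4.60 with EEF1D-1357, -4.32, -4.84 and -1.55 with EEF1D-1893, and -1.0 and 0.56 in control cells (limma, adjusted p = 0.153). OXTR, the oxytocin receptor, was at -7.16 to -5.68 on the shRNA arrays and -4.42 and -4.40 on the control arrays. It was well above background on 2 arrays only, the fewest with which a probe was tested. OXTR lay above the dimmest probes so counted on the control arrays (-5.86 and -5.38). On the shRNA arrays those probes were at -6.01 to -4.96. It thus entered the test through arrays where it was high, so no p-value is given and its place among the 2 markers is not support for a difference. KRT14, a basal keratin, overlapped between the groups: 5.25, 5.07 and 3.22 with EEF1D-1357, 1.96, 0.20 and 6.41 with EEF1D-1893, and 4.84 and 6.91 in control cells. All 6 fibroblast markers had log2 fold changes below 0 against control, but 3 without control replicate 1 and 5 without control replicate 2. The mean log2 level of the fibroblast list was -3.76 to -1.28 on the shRNA arrays and -2.72 to -1.63 on the control arrays. COL1A2, a collagen gene well above background on 4 arrays, was at -7.26 to 0.82 on the shRNA arrays and -3.66 and 0.23 on the control arrays. DCN varied less, at -1.73 to -1.51 and at -1.31 and -1.71. The part of cell composition in the results below was not tested.

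The 2 control arrays differed from each other. Control replicate 1 was above control replicate 2 for 22 of the 31 elongation factor probes tested (71%), with a median difference of 0.35, against 59.7% of all probes tested, with a median difference of 0.17. Its 75th percentile was the lowest of the 8 arrays, and its spike-in transcripts lay 1.67 above that percentile on the log2 scale, against 0.49 to 1.00 elsewhere. The hybridisation slide, read from the barcode in the file headers, added a further constraint. All EEF1D-1357 arrays shared slide 1 with control replicate 2. All EEF1D-1893 arrays shared slide 2 with control replicate 1. Values within a slide, each against its single control array, are therefore given beside the pooled ones.

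The EEF1D probes are shown because they read different stretches of the target. All lie on bovine chromosome 14, plus strand, in the Btau_3.1 coordinates of the file headers. A_73_P265551, the most 5′ of the 4 at chr14:931228-931287, is annotated to the Ensembl transcript of the gene rather than to the RefSeq one and begins with an ATG, in capitals. A_73_P159712 lies downstream of it at chr14:934089-934148.
A_73_P265551: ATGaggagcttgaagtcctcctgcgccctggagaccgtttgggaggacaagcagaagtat
A_73_P159712: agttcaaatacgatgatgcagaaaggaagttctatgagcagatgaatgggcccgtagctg
The remaining 2 probes overlap near the 3′ end, A_73_P279701 at chr14:938160-938333, an interval of 174 bases for a probe of 60, and A_73_115715 at chr14:938301-938360. They share 33 bases, of which 32 are identical. The difference is T22A, counted from the first base of A_73_115715, and stands in capitals in the first 30 shared bases.
A_73_115715: acattgctgctttcaacaagaTctgagccc
A_73_P279701: acattgctgctttcaacaagaActgagccc

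EEF1D signal lay below control on average at the 3 downstream probes on the shRNA arrays, although none of these differences passed the test after adjustment over all probes. At A_73_115715 the log2 signal was 5.97, 5.85 and 5.09 with EEF1D-1357, 5.99, 5.74 and 5.76 with EEF1D-1893, and 7.11 and 6.14 in control cells. All 6 shRNA arrays lay below both control arrays, but the gap to control replicate 2 was small beside the gap between the controls. The group means were 5.64 ± 0.48 (SD, n = 3), 5.83 ± 0.14 (n = 3) and 6.63 ± 0.69 (n = 2) in the same order of groups. Over both hairpins the log2 fold change against control was -0.89, with a standard error of 0.32 and a 95% interval of -1.64 to -0.15, which corresponds to 53.9% of the control level. With limma, the p-value was 0.0254 before adjustment and 0.219 after it. Against control replicate 2 alone the log2 fold change was -0.41, and against control replicate 1 alone it was -1.38.

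The overlapping probe A_73_P279701 gave nearly the same picture. Its log2 signal was 5.59, 5.47 and 4.64 with EEF1D-1357, 5.59, 5.41 and 5.56 with EEF1D-1893, and 6.70 and 5.82 in control cells, and again every shRNA array lay below both controls. The log2 fold change over both hairpins was -0.88 (limma, adjusted p = 0.221). At the upstream probe A_73_P159712 the log2 signal was -0.58, -0.71 and -2.08 with EEF1D-1357, -0.09, -0.44 and -0.38 with EEF1D-1893, and 1.11 and -0.22 in control cells. Here EEF1D-1893 replicate 1 lay above control replicate 2, so the groups overlapped. The log2 fold change was -1.16 with a standard error of 0.48 (limma, adjusted p = 0.26), and -0.50 without control replicate 1.

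The most 5′ probe, A_73_P265551, did not separate the groups. It was at -5.02, -4.95 and -5.39 with EEF1D-1357, at -4.65, -4.66 and -4.79 with EEF1D-1893, and at -3.91 and -5.26 in control cells, so all shRNA arrays but 1 lay between the 2 controls. It was well above background on 7 of the 8 arrays. Its log2 fold change was -0.32 over both hairpins (limma, adjusted p = 0.617) and 0.35 without control replicate 1. Which transcript forms each probe reads is not stated in the files.

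**Figure D1:**
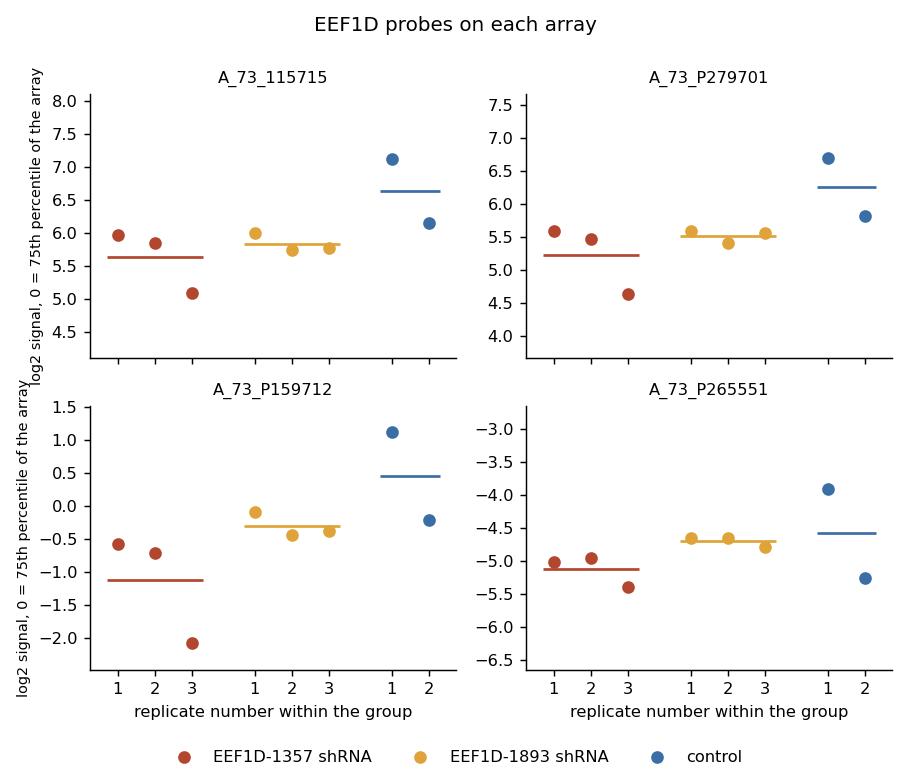
Log2 signal of the 4 EEF1D probes (vertical axis, 0 at the array's 75th percentile) on each array, with the replicate number within the group on the horizontal axis, points for arrays and lines for group means. At A_73_115715 and A_73_P279701 all 6 shRNA arrays lie below both controls, with EEF1D-1357 replicate 3 lowest at 5.09 and 4.64. At A_73_P265551 the controls, at -3.91 and -5.26, lie on both sides of all shRNA arrays but 1.

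The hairpins were then set against control separately, with the same 2 control arrays in both comparisons. For EEF1D-1357 the log2 fold changes of A_73_115715, A_73_P279701, A_73_P159712 and A_73_P265551 were -0.99, -1.02, -1.57 and -0.53 (limma, adjusted p between 0.222 and 0.457). For EEF1D-1893 the same probes gave -0.80, -0.74, -0.75 and -0.12 (limma, adjusted p between 0.348 and 0.905). Within slide 1, against control replicate 2, the EEF1D-1357 values were -0.50, -0.58, -0.91 and 0.14. Within slide 2, against control replicate 1, the EEF1D-1893 values were -1.29, -1.18, -1.41 and -0.79. So EEF1D-1357 had the more negative values in the pooled comparison and EEF1D-1893 had them within slides.

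Between the hairpins, EEF1D-1357 minus EEF1D-1893 was -0.19 at A_73_115715, with a 95% interval of -0.94 to 0.56, and -0.29, -0.82 and -0.42 at the other 3 probes (limma, adjusted p between 0.776 and 0.903). Without EEF1D-1357 replicate 3 they were 0.08, 0.01, -0.34 and -0.28, so the direction at the first 2 probes rested on that array. With the slide as a block the 4 differences changed sign, to 0.79, 0.60, 0.50 and 0.93. Each hairpin lay on 1 slide only, so hairpin and slide cannot be told apart without the 2 control arrays. EEF1D-1357 replicate 3 had the lowest EEF1D signal of the 8 arrays at all 4 probes.

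Of the 31 elongation factor probes tested, limma called 0 at an adjusted p under 0.05 in any of the 4 comparisons, and it called none of the other probes either (0% of 30702 in each comparison). At an unadjusted p under 0.05 there were 4 over both hairpins against control, the 3 downstream EEF1D probes and EEF2 probe A_73_P214762, where 5656 of all probes (18.4%) passed. For EEF1D-1357 against control there were 4, the same probes, where 5400 of all probes (17.6%) passed. There were 0 for EEF1D-1893 against control, where 4603 of all probes (15%) passed, and 0 between the hairpins, where 1913 (6.23%) did.

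Most of these probes had small negative log2 fold changes. Over both hairpins 27 of 31 were below 0, against 55.8% of all probes tested, and their median was -0.25, against -0.06 for all probes. The counts below 0 were likewise 27 of 31 for EEF1D-1357 against control (57.1% of all probes), 26 of 31 for EEF1D-1893 against control (52.5%) and 28 of 31 for EEF1D-1357 against EEF1D-1893 (57.5%). That last count depended on the slide. With the slide as a block the brightest probes turned to 0.79 (EEF1D), 0.03 (EEF1A1), 0.08 (EEF1B2), 0.5 (EEF1G), 0.09 (EEF1E1), 0.44 (EEF2) and 0.61 (EEFSEC). Most other EEF1A1 probes, EEF2 A_73_P207207 and A_73_P327816, and EEFSEC A_73_P324341 were below 0 in that fit. Over both hairpins without EEF1D the count was 23 of 27 and the median -0.22. Leaving out control replicate 1 changed this: 20 of 31 were then below 0, and 17 of 27 without EEF1D, against 45.8% of all probes. On the per-array values, all 6 shRNA arrays lay below both controls at 6 of the 31 probes (19.4%), against 9.99% of all probes: the 2 overlapping EEF1D probes, EEF1A1 probes A_73_P041941, A_73_P100161 and A_73_P099776, and EEF2 probe A_73_P108271. At 0 of the 31 did they lie above both, against 8.14% of all probes. All EEF1D-1357 arrays lay below both controls at 11 probes (19% of all probes), and all EEF1D-1893 arrays did so at 8 (15.6%). All EEF1D-1357 arrays lay below all EEF1D-1893 arrays at 2 probes (13.2% of all probes) and above them at 0 (6.96%). All these counts are of probes from 7 genes. Probes of 1 gene read the same RNA on the same arrays, so the counts do not stand for separate members. The median Pearson r between probes of a gene was 0.9 for EEF1D, 0.85 for EEF1A1, 0.82 for EEF1B2 and 0.88 for EEF1G. It was 0.27 for EEF2 and -0.17 for EEFSEC.

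**Figure D2:**
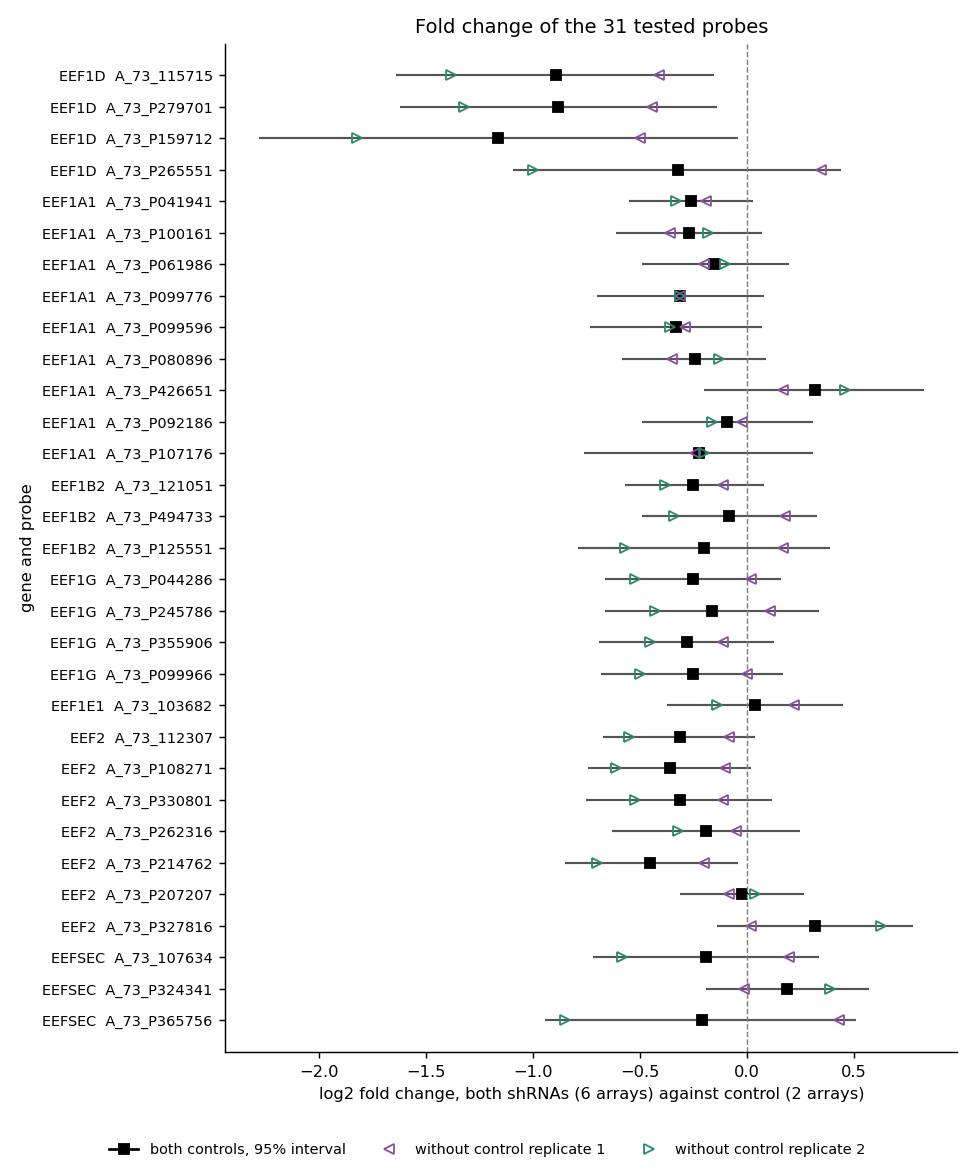
Log2 fold change of both hairpins (6 arrays) against control (2 arrays) for the 31 tested probes, listed by gene and probe down the page, with squares and bars for the fit with both controls and its 95% interval, and open triangles for the fits without control replicate 1 or 2. The 3 downstream EEF1D probes are farthest left at -0.89, -0.88 and -1.16. Without control replicate 1 they stand at -0.41, -0.44 and -0.50.

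EEF1A1, the gene of the GTPase that eEF1B recharges, has 9 probes, and 8 of them had log2 fold changes between -0.09 and -0.33. The brightest, A_73_P041941 at chr9:12614349-12614408 on the minus strand, was at 7.29, 7.37 and 7.51 with EEF1D-1357, 7.53, 7.52 and 7.42 with EEF1D-1893, and 7.77 and 7.63 in control cells. Every shRNA array lay below both controls, by a small margin. The log2 fold change was -0.26, with a standard error of 0.12 and a 95% interval of -0.55 to 0.03 (limma, adjusted p = 0.311), and without control replicate 1 it was -0.19. With background correction by normexp and quantile normalisation it was 0.03. A_73_P099776 was at 5.63, 5.84 and 6.10 with EEF1D-1357, 5.93, 6.21 and 5.89 with EEF1D-1893, and 6.24 and 6.24 in control cells, with a log2 fold change of -0.31 (limma, adjusted p = 0.359) that was the same with either control left out.

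EEF1A1 has probes that tile the same stretch with different letters, which is why 2 such pairs are shown. A_73_P092186 (chr9:12615581-12615718, minus strand) and A_73_P107176 (chr9:12615559-12615696, minus strand) share 38 bases with 2 differences, G31A and G34A, counted from the first base of A_73_P092186. A_73_P100161 (chr9:12614826-12614885, minus strand) and A_73_P061986 (chr9:12614801-12614860, minus strand) share 35 bases with 2 differences, C44T and G54A, counted from the first base of A_73_P100161. The differing bases are in capitals.
A_73_P092186: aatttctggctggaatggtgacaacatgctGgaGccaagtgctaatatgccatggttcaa
A_73_P107176: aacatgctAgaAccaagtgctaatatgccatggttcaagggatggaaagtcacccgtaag
A_73_P100161: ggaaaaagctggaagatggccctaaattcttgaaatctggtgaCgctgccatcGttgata
A_73_P061986: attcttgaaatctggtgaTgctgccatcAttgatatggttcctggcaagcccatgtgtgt
The files list several Ensembl transcripts for most EEF1A1 probes, so signal from near-identical copies of the gene cannot be told apart from signal of EEF1A1 itself. Over both hairpins the first pair had log2 fold changes of -0.09 and -0.22 (limma, adjusted p = 0.796 and 0.624) and the second -0.27 and -0.15 (limma, adjusted p = 0.364 and 0.617). Their standard errors were 0.15 to 0.23. Both probes of a pair were read on the same arrays, so these errors do not measure the error of the difference within a pair.

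The EEF1A1 probe nearest the 3′ end, A_73_P426651 at chr9:12613784-12613843, pointed the other way. It was at 4.24, 4.43 and 4.95 with EEF1D-1357, 4.58, 4.84 and 4.43 with EEF1D-1893, and 4.11 and 4.41 in control cells. Its log2 fold change was 0.32, with a 95% interval of -0.20 to 0.83 (limma, adjusted p = 0.461). Over the 8 arrays it correlated with the other EEF1A1 probes at Pearson r between -0.11 and 0.52, whereas the median over all 36 pairs of EEF1A1 probes was 0.85. The arrays behind these correlations are few and share their groups and slides.

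EEF1A2, the muscle and neuron isoform, was measured on a single array. Its 3 probes lie on chromosome 13, plus strand, and were well above background in control replicate 1 only, so none could be tested. A_73_115974 (chr13:54841340-54841399) is shown because it covers the same coding stretch as EEF1A1 probe A_73_P100161 above: over 55 bases 39 are identical (70.9%), and the 16 that differ are in capitals.
A_73_115974: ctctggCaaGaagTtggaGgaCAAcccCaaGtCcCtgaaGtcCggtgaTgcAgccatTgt
The processed intensity of A_73_115974 was 27.8, 11.5 and 12.9 with EEF1D-1357, 38.1, 17.0 and 14.9 with EEF1D-1893, and 401.3 and 9.0 in control cells. A_73_P268507 read 18.5, 12.9 and 14.2 with EEF1D-1357, 9.3, 8.5 and 9.8 with EEF1D-1893, and 70.0 and 9.0 in control cells. A_73_P406296 read 7.4, 11.8 and 13.1 with EEF1D-1357, 8.7, 8.3 and 9.0 with EEF1D-1893, and 65.1 and 9.0 in control cells. All 3 probes thus stood out in control replicate 1 and were at background in control replicate 2 and in every shRNA array. The dimmest probes counted as well above background had intensities between 21.9 and 64.6, depending on the array.

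Markers of the tissues in which this isoform is known were compared as lists. The mean log2 level of 6 skeletal muscle markers was -4.08 to -3.46 on the shRNA arrays and -4.27 to -3.52 on the control arrays, and that of 5 neuronal markers was -4.81 to -4.03 on the shRNA arrays and -5.25 to -3.89 on the control arrays. In both lists control replicate 1 was the higher control, and their part in the EEF1A2 signal was not tested. CKM, muscle creatine kinase, was at -3.81, -3.99 and -3.61 with EEF1D-1357, -4.49, -4.60 and -3.99 with EEF1D-1893, and -3.41 and -3.78 in control cells. NEFL, a neurofilament gene, was at -1.75 in control replicate 1 and -5.33 in control replicate 2. Its shRNA arrays ranged between -3.37 and -0.75. The muscle genes MYH7 and MB were at -3.40 and -1.90 in control replicate 1, and at -4.31 and -2.84 in control replicate 2. The neuronal genes SYP and RBFOX3 were at -0.90 and -4.68, then at -1.86 and -6.50. TNNT3, a muscle gene well above background on 1 array, was at -5.46 and -7.32. Only MYBPC1 and STMN2 were lower in control replicate 1, with both controls at -7.69 or below.

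**Figure D3:**
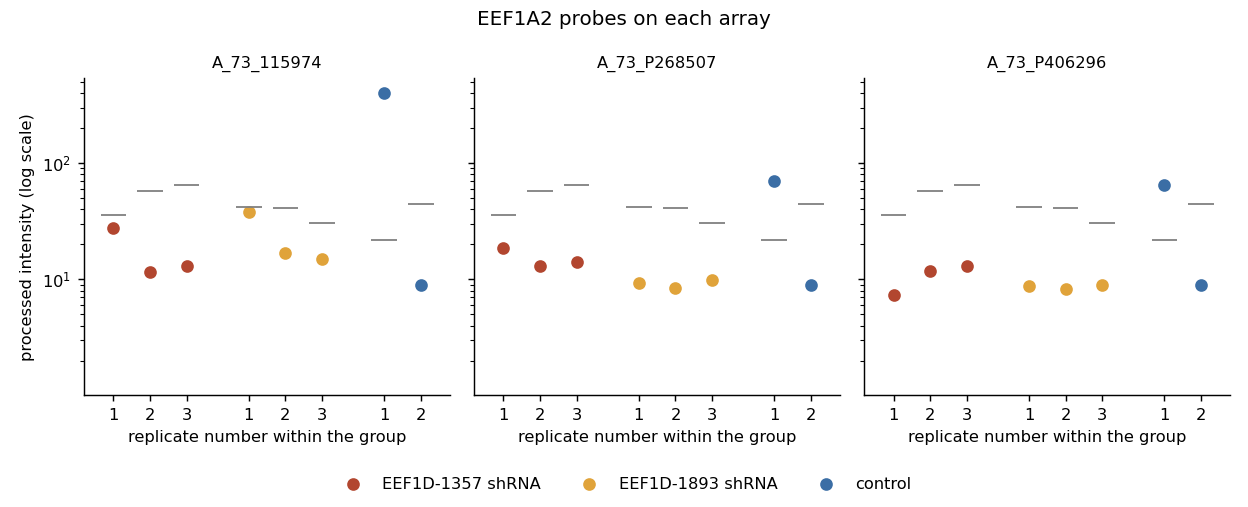
Processed intensity on a log scale of the 3 EEF1A2 probes on each array, with the replicate number within the group on the horizontal axis, points for arrays and grey bars for the dimmest probe well above background on that array. Control replicate 1 alone lies above its bar, at 401.3, 70.0 and 65.1.

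EEF1B2 and EEF1G, which encode the partners of EEF1D in eEF1B, had log2 fold changes nearer to 0 than EEF1D. EEF1B2 probe A_73_121051 (chr2:99571659-99571718) was at 6.29, 6.26 and 6.46 with EEF1D-1357, 6.63, 6.42 and 6.52 with EEF1D-1893, and 6.81 and 6.54 in control cells. All EEF1D-1357 arrays lay below both controls, and the EEF1D-1893 arrays overlapped with them. The log2 fold change was -0.25 over both hairpins, with a 95% interval of -0.57 to 0.08 (limma, adjusted p = 0.376). A_73_P494733 overlaps that probe over 57 bases with 3 differences and gave -0.08 (limma, adjusted p = 0.826), or 0.18 without control replicate 1. The third EEF1B2 probe, A_73_P125551, was designed from an expressed sequence tag on the opposite strand of the annotation (chr2:99568507-99568566) and gave -0.20 (limma, adjusted p = 0.695).

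The 4 EEF1G probes lay close together, with log2 fold changes of -0.25, -0.16, -0.28 and -0.25 (limma, adjusted p between 0.419 and 0.711). The brightest, A_73_P044286 (chr29:42605878-42605937, minus strand), was at 5.50, 5.32 and 5.65 with EEF1D-1357, 5.50, 5.49 and 5.60 with EEF1D-1893, and 6.03 and 5.49 in control cells. Control replicate 1 stood above the 7 other arrays, while control replicate 2 lay among the shRNA arrays. Without control replicate 1 the 4 log2 fold changes were 0.02, 0.11, -0.11 and 0, so at 3 of the 4 probes they were no longer below 0. EEF1E1, the synthetase complex scaffold, has 1 probe, A_73_103682 (chr23:48253100-48253159), at -1.0, -0.95 and -0.54 with EEF1D-1357, -0.47, -0.65 and -0.57 with EEF1D-1893, and -0.56 and -0.92 in control cells. Its groups overlapped and its log2 fold change was 0.04 (95% interval -0.37 to 0.45, limma, adjusted p = 0.921).

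**Figure D4:**
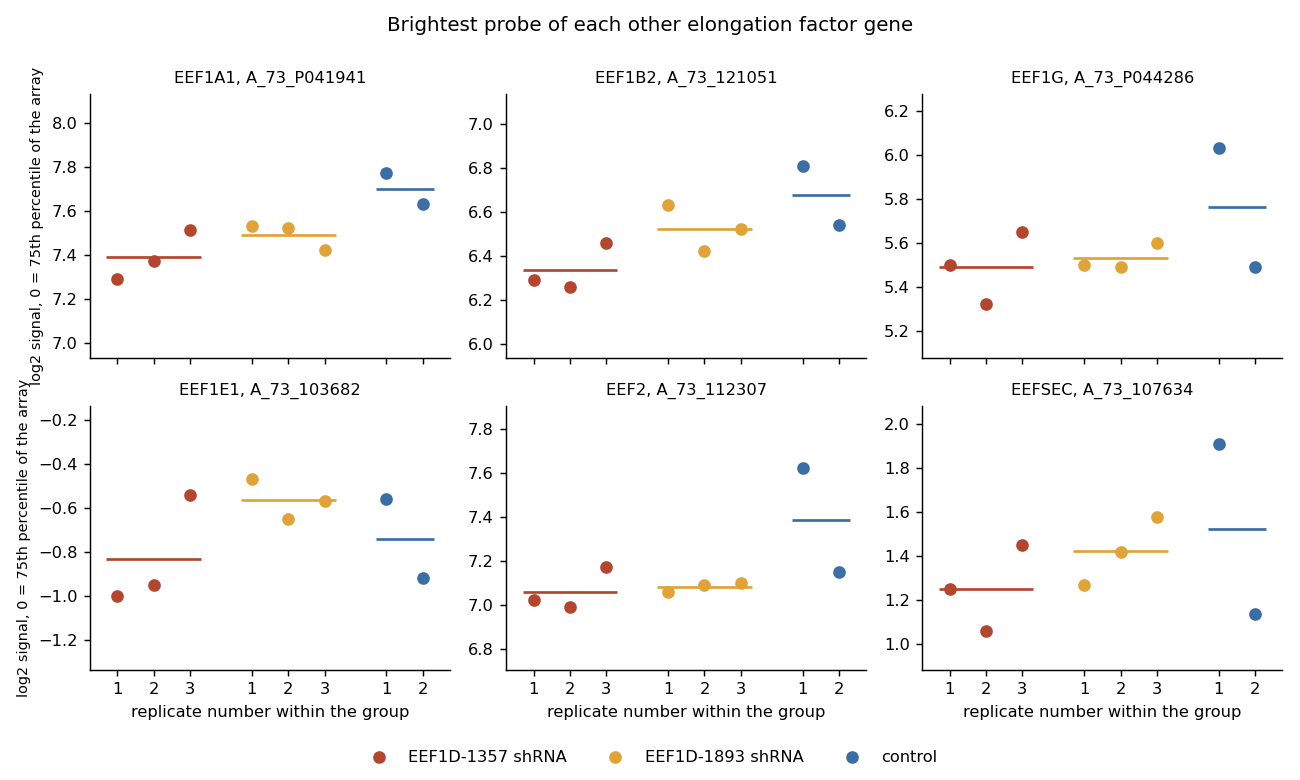
Log2 signal (vertical axis, 0 at the array's 75th percentile, the same span in each panel) of the brightest probe of EEF1A1, EEF1B2, EEF1G, EEF1E1, EEF2 and EEFSEC on each array, with the replicate number within the group on the horizontal axis and lines at the group means. Control replicate 1 is the highest array for EEF1A1, EEF1B2, EEF1G, EEF2 and EEFSEC. All 6 shRNA arrays lie below both controls for EEF1A1 alone of these 6 probes.

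EEF2 encodes the translocase, and 6 of its 7 probes had log2 fold changes below 0, between -0.02 and -0.45. The brightest, A_73_112307 (chr7:18634589-18634648), was at 7.02, 6.99 and 7.17 with EEF1D-1357, 7.06, 7.09 and 7.10 with EEF1D-1893, and 7.62 and 7.15 in control cells. EEF1D-1357 replicate 3 was the only shRNA array above control replicate 2, and control replicate 1 stood above all. The log2 fold change was -0.31, with a 95% interval of -0.67 to 0.04 (limma, adjusted p = 0.319). It was -0.08 without control replicate 1. A_73_P108271, which shares 36 identical bases with it, was at 6.92, 6.73 and 6.92 with EEF1D-1357, 6.89, 6.91 and 6.88 with EEF1D-1893, and 7.49 and 6.98 in control cells, with a log2 fold change of -0.36 (limma, adjusted p = 0.291), or -0.10 without control replicate 1.

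Of the EEF2 probes, 2 that lie near each other on the plus strand of chromosome 7 had opposite signs, and both are shown in full. A_73_P214762 spans an interval of 570 bases at chr7:18629237-18629806, and A_73_P327816 lies downstream at chr7:18630290-18630349.
A_73_P214762: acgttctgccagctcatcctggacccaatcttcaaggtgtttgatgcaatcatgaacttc
A_73_P327816: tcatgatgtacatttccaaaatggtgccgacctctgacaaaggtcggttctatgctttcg
A_73_P214762 was at 3.20, 3.12 and 3.33 with EEF1D-1357, 3.49, 3.16 and 3.3 with EEF1D-1893, and 3.96 and 3.46 in control cells. Its log2 fold change was -0.45, with a standard error of 0.17 and an unadjusted p of 0.0361 (limma, adjusted p = 0.244), and only EEF1D-1893 replicate 1 lay above control replicate 2. A_73_P327816 was at -0.59, -0.68 and -0.48 with EEF1D-1357, -0.91, -0.70 and -0.51 with EEF1D-1893, and -1.27 and -0.66 in control cells, with a log2 fold change of 0.32 (limma, adjusted p = 0.408). Control replicate 1 was thus the highest array at the first probe and the lowest at the second. Without it the log2 fold changes were -0.20 and 0.02. Over the 8 arrays the second probe had Pearson r of -0.76, -0.79 and -0.83 with A_73_112307, A_73_P108271 and A_73_P214762, as a description over arrays that share slides and controls.

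Within a slide the EEF2 values depended on which control was present. For EEF1D-1893 against control replicate 1 on slide 2, A_73_112307 and A_73_P108271 gave -0.53 and -0.60. For EEF1D-1357 against control replicate 2 on slide 1 the same probes gave -0.09 and -0.12. The fit with the slide as a block gave the same values. Each slide holds 1 control array, so that fit takes the gap between the controls as a slide effect. Its p-values hold no spread between control arrays and are not given here.

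EEFSEC, the selenocysteine factor, has 3 probes that did not move together. A_73_107634 (chr22:61237013-61237072, minus strand) was at 1.25, 1.06 and 1.45 with EEF1D-1357, 1.27, 1.42 and 1.58 with EEF1D-1893, and 1.91 and 1.14 in control cells. All shRNA arrays but 1 lay between the 2 controls, and the log2 fold change was -0.19, or 0.20 without control replicate 1 (limma with both controls, adjusted p = 0.679). A_73_P365756 was alike, at -0.21 (limma, adjusted p = 0.739), while A_73_P324341, whose interval covers 7187 bases, gave 0.19 (limma, adjusted p = 0.551). For EEF1D-1893 against control, A_73_P365756 was at -0.12 (limma, adjusted p = 0.896), but at -0.76 with the slide as a block, a value against control replicate 1 alone. Over both hairpins A_73_P365756 was at -0.85 without control replicate 2 and at 0.43 without control replicate 1. The order of the EEFSEC groups was not resolved by these 8 arrays.

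The difference between EEF1D and each other factor within an array is not altered when 1 value is subtracted from all probes of the array, as in 75th percentile or median scaling. Quantile normalisation can alter it. For each partner the log2 signal of A_73_115715 minus that of the partner's brightest probe was centred on the mean of the 2 controls. Against EEF2 it was -0.29, -0.38 and -1.32 with EEF1D-1357, -0.32, -0.59 and -0.58 with EEF1D-1893, and 0.26 and -0.26 in control cells. Against EEF1G it was -0.39, -0.34 and -1.43 with EEF1D-1357, -0.38, -0.62 and -0.70 with EEF1D-1893, and 0.22 and -0.22 in control cells. All 6 shRNA arrays were below both controls for these partners and for EEF1E1 and EEFSEC, and 5 of 6 were for EEF1A1 and EEF1B2, where EEF1D-1357 replicate 1 was above control replicate 2. A_73_115715 on its own already had all 6 shRNA arrays below both controls, so these counts are not separate evidence. The same difference was not taken against genes outside this set. The mean over the 6 shRNA arrays ranged between -0.58 (EEF2) and -0.93 (EEF1E1), and under quantile normalisation between -0.58 (EEF1G) and -0.83 (EEF1E1). The arrays that lay farther below control replicate 2 than the controls lay from each other were 1 of 6 for EEF1A1, EEF1B2 and EEF2, 2 of 6 for EEF1G, 3 of 6 for EEF1E1 and 6 of 6 for EEFSEC. The controls were 0.78 apart at the EEFSEC probe and 0.98 apart at A_73_115715, so that subtraction removed most of the gap between them.

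**Figure D5:**
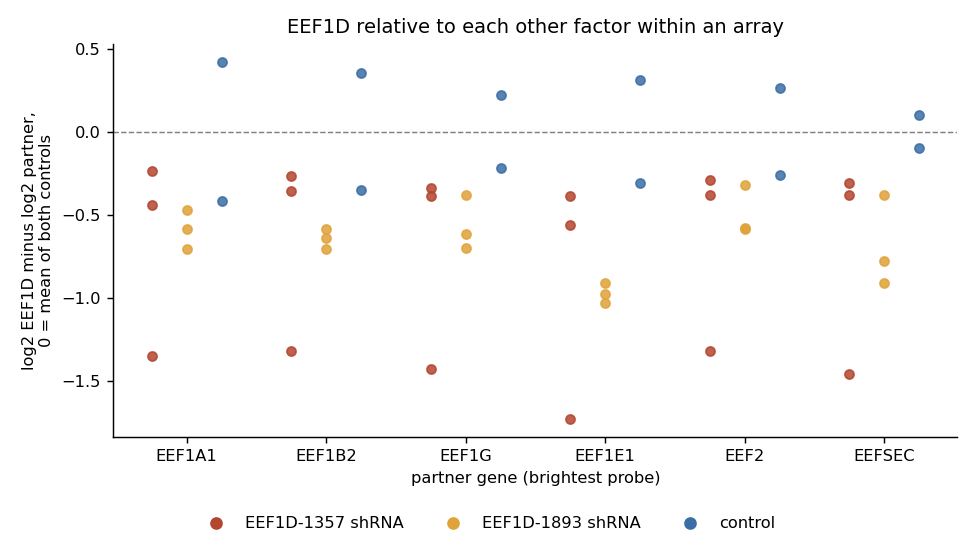
Log2 signal of EEF1D probe A_73_115715 minus that of each partner's brightest probe within the same array (vertical axis, 0 at the mean of both controls), with 1 point per array and the partner genes on the horizontal axis. EEF1D-1357 replicate 3 is lowest throughout, at -1.32 against EEF2 and -1.73 against EEF1E1. The controls lie 0.10 to 0.42 on both sides of 0.

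Levels over the 8 arrays were compared with those of 10826 other named genes, each at its brightest probe. The genes most like EEF1D were CLDN15 (Pearson r = 0.978), DGKD, MITF, TCEANC and SLC25A38 (0.955), against a median r of 0.19. Those most like EEF1A1 were CNBP (0.984), PGM2, RPL7A, SETBP1 and NXT1 (0.964), and those most like EEF2 were CDC42EP2 (0.992), ZBTB7C, NAV2, ZNF518A and SRP68 (0.983). RPL7A encodes a protein of the large ribosomal subunit and SRP68 a subunit of the signal recognition particle. The 8 arrays share 3 groups and 2 slides, and this likeness is given as a description only.

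Genes that act on or beside these factors are described by list, each gene at its brightest probe, over both hairpins against control and with 0 called by limma in each list. The 3 genes of smallest p in each list were picked for naming, a choice that favours genes whose arrays do not overlap with the controls. Over all probes tested, all 6 shRNA arrays lay below both controls at 9.99% and above both at 8.14%. Among 15 tested regulators and modifiers of eEF1A, eEF2 and eIF5A, 8 were below 0 and 7 above, with a median log2 fold change of -0.03, but 4 were below 0 without control replicate 1, with a median of 0.18. EEF2K, the kinase that inhibits eEF2, was at 1.03, 0.81 and 0.81 with EEF1D-1357, 1.33, 1.32 and 0.95 with EEF1D-1893, and 2.14 and 1.60 in control cells. All 6 shRNA arrays lay below both controls, with a log2 fold change of -0.83 (limma, adjusted p = 0.14), or -0.56 without control replicate 1. DPH6, which completes the diphthamide modification of eEF2, was at -2.35, -2.18 and -1.94 with EEF1D-1357, -2.15, -1.85 and -2.02 with EEF1D-1893, and -3.11 and -2.71 in control cells. Every shRNA array was above both controls, with a log2 fold change of 0.83 (limma, adjusted p = 0.131), or 0.63 without control replicate 1. DNAJC24, another gene of diphthamide synthesis also known as DPH4, had 0.68 (limma, adjusted p = 0.151), with all shRNA arrays above both controls. The other genes of diphthamide synthesis tested, DPH2, DPH3 and DPH5, had -0.03, 0.39 and 0.07 (limma, adjusted p = 0.916, 0.227 and 0.891).

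Of the multi-tRNA synthetase complex, which holds the EEF1E1 product, 9 of 10 tested genes were below 0, with a median of -0.16, and 6 of 10 without control replicate 1. MARS1, methionyl-tRNA synthetase, was at -0.72, -0.62 and -0.41 with EEF1D-1357, -0.15, -0.39 and -0.14 with EEF1D-1893, and 0.89 and 0.07 in control cells. It lay below both controls on every shRNA array, with a log2 fold change of -0.89 (limma, adjusted p = 0.15), or -0.47 without control replicate 1. QARS1, glutaminyl-tRNA synthetase, had -0.44 (limma, adjusted p = 0.228), and AIMP1, a scaffold protein of the complex, had -0.19 (limma, adjusted p = 0.455). VARS1, the synthetase that associates with eEF1, was not analysed here.

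On the selenocysteine side, 4 of 5 tested insertion genes were below 0 with a median of -0.13, against 3 of 5 without control replicate 1 and 2 of 5 without control replicate 2. PSTK, TRNAU1AP and SEPHS2 had 0.23, -0.16 and -0.18 (limma, adjusted p between 0.451 and 0.618). SEPHS2 was at -0.49 without control replicate 1 and 0.14 without control replicate 2, and TRNAU1AP at -0.04 and -0.27. Among 18 tested selenoprotein genes 7 were below 0 and 11 above, with a median of 0.28. The split depended on the control: 3 below and 15 above without control replicate 1, with a median of 0.34, and 9 below and 9 above without control replicate 2, with a median of 0.01. SELENOK, an endoplasmic reticulum selenoprotein, was at 3.53, 3.52 and 3.42 with EEF1D-1357, 3.34, 3.52 and 3.46 with EEF1D-1893, and 2.68 and 2.92 in control cells. All shRNA arrays were above both controls, with a log2 fold change of 0.67 (limma, adjusted p = 0.128), or 0.55 without control replicate 1. SELENOP, the secreted selenium carrier, was at 2.61, 2.68 and 2.13 with EEF1D-1357, 1.79, 2.04 and 1.53 with EEF1D-1893, and 1.17 and 1.32 in control cells, with 0.89 (limma, adjusted p = 0.14). TXNRD3, a thioredoxin reductase, had -0.51 (limma, adjusted p = 0.147).

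Some selenoprotein genes differed widely between the controls. SELENOW was at 4.44 in control replicate 1 and 1.53 in control replicate 2, and GPX1, a glutathione peroxidase, at 4.79 and 2.61. All 6 shRNA arrays lay between the controls for SELENOW and 5 of 6 for GPX1. Of 5 mitochondrial elongation factor genes 3 were below 0, with TUFM at -0.23, TSFM at -0.24 and GFM2 at -0.26 (limma, adjusted p between 0.41 and 0.587). Without control replicate 1 these were -0.06, 0.19 and -0.16. Of 8 termination and ribosome rescue genes 7 were above 0 with a median of 0.05, and 5 were without control replicate 2. GTPBP1 had -0.42 and ABCE1, the ribosome recycling factor, had 0.41 (limma, adjusted p = 0.178 and 0.215). HBS1L, which encodes a rescue factor related to eEF1A, was at 1.81 to 2.27 on the shRNA arrays and at 0.70 and 2.06 in control cells. Its log2 fold change was 0.74 (limma, adjusted p = 0.285), or 0.06 without control replicate 1.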

How the data were processed

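Scanner files of 8 one-colour Agilent arrays were used. The authors deposited Cy3 spot intensity per the file headers, from Agilent Feature Extraction 10.7.3.1 there and 9.1 per the submitters' processing notes. The intensity is background-subtracted. The deposited series table of log2 values, quantile normalised (every array's median was 7.55), served as an alternative.

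Of 43653 non-control probes, 238 with an outlier spot were left out. The log2 processed intensity of each probe was reduced by the array's 75th percentile. The 30702 probes marked as above background on 2 or more arrays entered limma 3.58.1 (R 4.3.3), with 1 mean per group, 4 comparisons and Benjamini-Hochberg adjustment over all probes, called under 0.05. No probe was saturated, and the number of arrays limits precision. The fit was tested on simulated data with independent noise. These held no gap between the controls and no slide effect, so the fit was not tested against either. Genes were named with the RefSeq table of ARS-UCD2.0.

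All member probes are named. Of each pathway list, the 3 genes of smallest p were named, with DPH2, DPH3, DPH5, SELENOW and GPX1 besides, and for likeness the 5 genes of highest r. Members and lists were chosen with earlier results of these data known. Alternatives covered scaling, background, dim-probe filter, probe choice, variance prior, array weights, replicate block, slide and leaving out each array. Replicate numbers were not taken as pairs, since same-numbered arrays correlated in their deviations at r of -0.07 to 0.16.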

Additional observations from a re-analysis of the deposited data

Results flagged for a closer look

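The 6 shRNA arrays were treated as 1 group at each of the 31 tested probes and searched for a single array far from the others by Dixon's ratio of gap to range, at the 95% critical value for 6 values. Chance alone marks about 1 in 20 such groups, and 4 probes were marked. In 3 cases EEF1D-1357 replicate 3 was the low array: log2 signal 5.09 at EEF1D probe A_73_115715, 4.64 at EEF1D probe A_73_P279701 and -2.08 at EEF1D probe A_73_P159712, with ratios of 0.72, 0.804 and 0.686. All 3 of these probes read EEF1D on the same array, and the first 2 overlap. Their Pearson r with each other was 0.95 to 0.99, so they are not separate evidence. In the other case EEF1D-1357 replicate 2 was low at EEF2 probe A_73_P108271, at 6.73 with a ratio of 0.764.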

How the results depend on the processing

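The counts of elongation factor probes called were 0 in every comparison under each alternative except those named here. Without control replicate 2 the counts were 7 over both hairpins, 8 for EEF1D-1357 and 3 for EEF1D-1893, where 6980, 6912 and 4541 of all probes were called, and the lone control was assumed to vary like the other groups. With the slide as a block the EEF1D-1893 count was 3, of 4541 called in all, and that comparison then rests on control replicate 1. In neither of these settings do the calls take in any spread between control arrays. The brightest EEF1D probe reached -1.38 without control replicate 2. Over single arrays left out, the counts ranged between 0 and 7, 0 and 8, and 0 and 3, and that probe between -1.38 and -0.41.

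Signs changed at 1 or more settings for these values over both hairpins, with the range over single arrays left out. EEF1D A_73_P265551 ranged between -1.0 and 0.35, EEF1B2 A_73_P494733 between -0.34 and 0.18, and A_73_P125551 between -0.57 and 0.17. EEF1G A_73_P044286 ranged between -0.52 and 0.02, A_73_P245786 between -0.43 and 0.11, and A_73_P099966 between -0.50 and 0. EEF1E1 ranged between -0.14 and 0.22, EEF2 A_73_P207207 between -0.08 and 0.04, and EEFSEC A_73_107634 between -0.58 and 0.20, A_73_P324341 between -0.01 and 0.39, and A_73_P365756 between -0.85 and 0.43. For EEF1D A_73_P265551 the range was -1.21 to 0.14 with EEF1D-1357 and -0.79 to 0.56 with EEF1D-1893. Between the hairpins A_73_115715 ranged between -0.36 and 0.08, and A_73_P279701 between -0.46 and 0.01.

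Other settings gave 0.03 for EEF1A1 A_73_P041941 and 0.02 for EEF1B2 A_73_P125551 (normexp), 0.01 for EEF1B2 A_73_P494733 and 0.07 for EEF2 A_73_P207207 (median scaling), 0 for EEF2 A_73_P207207 (quantile normalisation and the deposited table), and -0.01 for EEF1E1 (array weights). With the slide as a block EEF1D A_73_P265551 had 0.14 with EEF1D-1357, and the EEF1D differences between the hairpins were 0.79, 0.60, 0.50 and 0.93. The replicate block called 0 probes in all 4 comparisons, gave -0.74 for the brightest EEF1D probe (limma, adjusted p = 0.247) and -0.03 for EEF1E1, and changed no call. Under 75th percentile, quantile and median scaling the median of the elongation factor probes was -0.25, -0.16 and -0.16, with 27, 26 and 25 of 31 below 0, and that of all probes was -0.06, 0 and 0.03. The counts below 0 under each setting, those of the gene lists with either control left out, and the quantile values of EEF1D relative to other factors were chosen after seeing the data. The cause of these changes was not tested. With 2 control arrays, the distance between them limits every comparison against control.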
